A study of Mus musculus with 135 samples.

Results

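Minocycline given to sickle mice that were not exposed to stress was examined by comparing SS + minocycline mice with SS mice, region by region in the cerebral cortex and the hippocampus of the same animals. Of 135 libraries in the series, 23 belonged to this comparison. All were male Townes mice homozygous for the human sickle globin allele in place of the mouse globin genes, none was exposed to repeat social defeat (RSD), and they differed by minocycline in the drinking water (SS + minocycline) or plain water (SS). By the study's methods, minocycline stopped on the day of the last RSD session, before behavioral testing began. Brains were taken after that testing, so treated mice were no longer receiving the drug. Members were chosen by their labels as SS genotype, control for stress exposure, and treated or not. The labels gave 5 SS + minocycline mice per region, but the counts of mouse 9887 were identical to those of mouse 9877, labelled AA + RSD + minocycline (32837942 reads on genes in both cortex libraries and 27202406 in both hippocampus libraries), so both were left out. This left 4 SS + minocycline mice (7108, 7121, 9888 and 9889) against 8 SS mice in the cortex, and the same 4 against 7 SS mice in the hippocampus. The 6 SS + RSD and 14 SS + RSD + minocycline mice of each region entered the models and are not described.

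Minocycline is a tetracycline antibiotic that enters the brain. Its antibacterial action is on the bacterial ribosome, and tetracyclines are also known to slow translation in mitochondria. In the brain it is best known for dampening the activation of microglia, the resident immune cells, and tetracyclines are known inhibitors of matrix metalloproteinases. Brain tissue of sickle mice is a setting of chronic hemolysis, vascular injury and inflammation. The lists described here therefore cover immune cells, mitochondria, metalloproteinases, vessels, iron handling, myelin and neuronal activity.

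The RNA was polyadenylated RNA of whole tissue pieces, so fewer cells of a type and less RNA per cell cannot be told apart. Cortex libraries held 16295042 to 72737645 reads on genes, and hippocampus libraries 23673351 to 68729401. The tissue labels matched their markers. The summed level of 12 genes that mark hippocampal subfields was 1120 to 1320 CPM (reads of a gene scaled to a common library total) in the hippocampus and 379 to 487 in the cortex, and that of 12 cortical layer genes was 1040 to 1210 in the cortex and 416 to 639 in the hippocampus. Of the adult mouse globin genes, which human genes replace in the Townes strain, Hbb-bs had at most 7 reads and Hbb-bt at most 8 in any library. The alpha-globin genes had more, with 16 to 93 reads of Hba-a2 and 0 to 78 of Hba-a1.

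The libraries fell into separate sets that followed their labels' V numbers, not the treatment. The libraries of each region carry V numbers of up to V69. On the first principal component of all libraries with a known group, which held 36.4% of the variance in the cortex and 40.7% in the hippocampus, V1 to V37 lay apart from V38 to V69. In the hippocampus the scores were -31 to -2.22 against 8.79 to 52.5 and did not overlap, and in the cortex 1 library of V1 to V37 (mouse 7076, SS + RSD + minocycline) lay with the other set at 35. What the V numbers stand for is not stated in the labels. Mice 7108 and 7121 carried V2 and V3, mice 9888 and 9889 carried V41 and V42, and the SS mice carried numbers between V15 and V20 or, for mice 5349 and 5353, V63 and V64. Both groups thus had mice in each set, but no shorter run of V numbers held both: treated mice lay in V1 to V8 and V38 to V54, and SS mice in V9 to V37 and V55 to V69. Among these mice alone, minocycline and the run of V numbers therefore cannot be told apart, within a set as well.

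**Figure D1:**
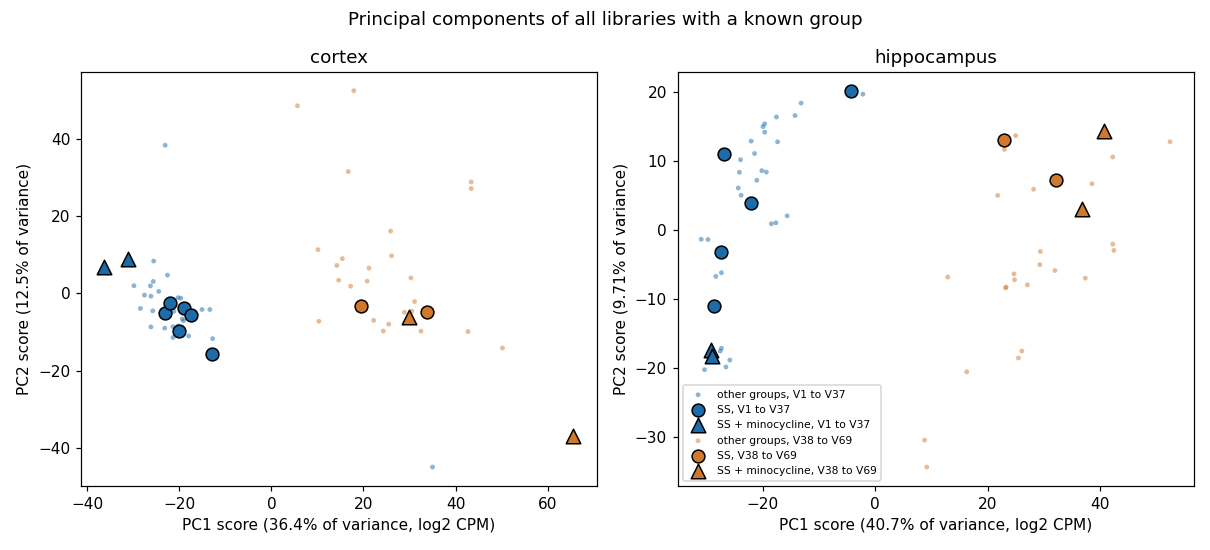
Scores of all libraries with a known group on the first and second principal components of log2 CPM in the cortex (left) and hippocampus (right). Triangles are SS + minocycline mice, circles SS mice and dots other groups, with V1 to V37 in blue and V38 to V69 in orange; both groups have mice in each set.

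The summed level of long RNAs that stay in the nucleus separated these sets in the cortex. Malat1 on its own did not, at 427 CPM in the cortex of 9888 and 95.8 to 331 in those of 9889, 5349 and 5353. SS cortices of V1 to V37 had 379 to 484 CPM of Malat1. The summed level of 7 such RNAs, of which Meg3 was the most abundant, was 13200 and 11700 CPM in cortices of 7108 and 7121 but 3540 and 2060 in those of 9888 and 9889. In SS cortices it was 11100 to 12900 CPM in the 6 libraries of V1 to V37 and 4160 and 2380 in mice 5349 and 5353. The summed level of 83 cytosolic ribosomal protein genes went the other way. In the cortex it was 7930 and 8060 CPM in mice 7108 and 7121, 18600 and 33200 in 9888 and 9889, 9420 to 11200 in SS mice of V1 to V37, and 16200 and 18200 in 5349 and 5353. The hippocampus showed the same split, with 8900 and 8780 against 24300 and 21400 CPM in treated mice. Within SS + minocycline mice, edgeR's quasi-likelihood test called 8336 of 22926 genes between V38 to V54 and V1 to V8 in the cortex (36.4%) and 7290 of 23215 in the hippocampus (31.4%). Within SS mice, 2772 genes (12.1%) and 5275 genes (22.7%) were called between V55 to V69 and V9 to V37. Between V38 to V54 and V9 to V37, the calls were 6666 (29.1%) and 9847 (42.4%) in AA + RSD + minocycline mice, 6529 (28.5%) and 9777 (42.1%) in SS + RSD + minocycline mice, and 2747 (12%) and 3614 (15.6%) in AA mice. A gene was called at a Benjamini-Hochberg adjusted p under 0.05.

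**Figure D2:**
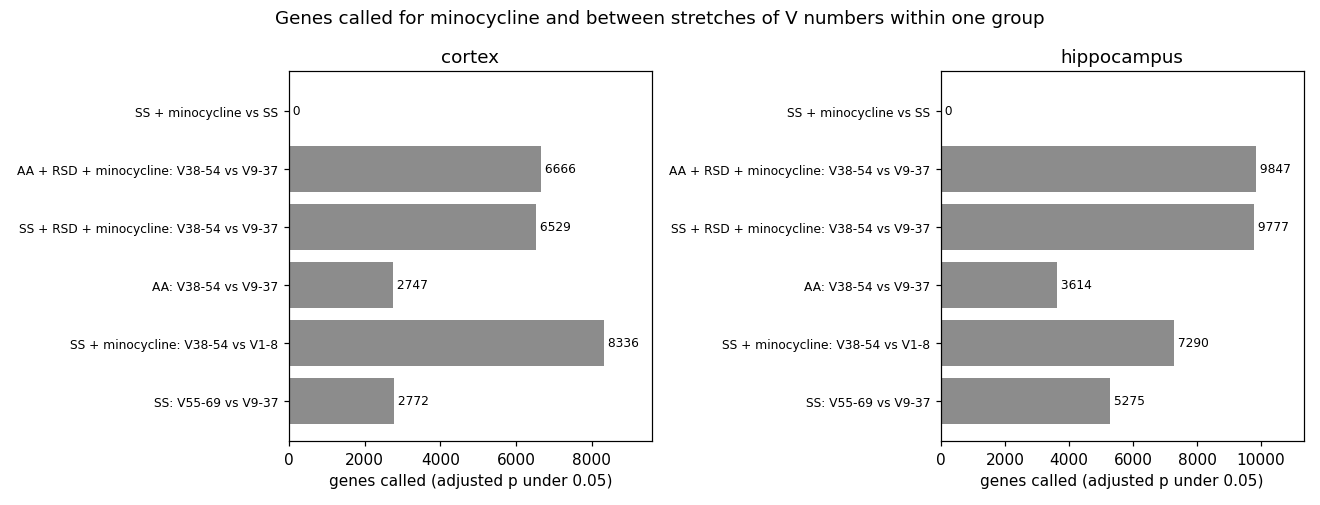
Number of genes called (adjusted p under 0.05, edgeR) for SS + minocycline against SS (first line, 0 in each region) and between stretches of V numbers within one group (grey bars from 0). Within SS + minocycline mice the bars stand at 8336 (cortex) and 7290 (hippocampus) genes.

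Against that spread, no gene was called for minocycline in the model of all SS groups. In the cortex 0 of 19906 genes (0%) and in the hippocampus 0 of 20701 genes (0%) passed, with smallest edgeR adjusted p-values of 0.666 and 0.981. Likewise, DESeq2 called 0 in each region. At an unadjusted p under 0.05, 1084 cortical genes (5.45%) were higher and 322 (1.62%) lower in treated mice, and in the hippocampus 205 (0.99%) were higher and 244 (1.18%) lower. DESeq2 gave 1443 and 557 genes at that level, where edgeR gave 1406 and 449. Within each set of V numbers genes were called: with libraries V1 to V37 alone 3381 in the cortex and 8 in the hippocampus, and with V38 to V69 alone 23 and 118, each set having 2 treated mice. These are also contrasts between runs of V numbers. With the stretch of V numbers as a term in the model of all SS groups, 0 genes were called in each region (1379 and 625 at an unadjusted p under 0.05). The models of all SS groups hold mouse 7076 (SS + RSD + minocycline), counted in V1 to V37. Its cortex lay with V38 to V69 on the first principal component, and its part in these counts was not tested. The stretch term in SS and SS + minocycline mice alone, thus without 7076, gave 58 calls among 17610 genes in the cortex. In the hippocampus it gave 0 among 20418. Within each set, treated and SS mice still differed in their run of V numbers, so the 58 calls cannot be assigned to minocycline. The median standard error of a log2 fold change was 0.23 in the cortex and 0.22 in the hippocampus. When the log2 CPM of both regions were averaged for each mouse, limma called 0 of 19509 genes (0%), with 821 at an unadjusted p under 0.05. DESeq2 was not run on these means. Both regions came from the same mice with nearly the same V numbers, so what both regions share cannot be told apart from other differences between these mice.

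What both regions shared was small. Of 19509 genes tested in both, 69 had an unadjusted p under 0.05 in each, and 68 of these (0.349%) had one direction, 35 higher and 33 lower in SS + minocycline mice. In the cortex 1387 and in the hippocampus 428 of the 19509 genes had such a p. Of the 68, 47 had a symbol and a mean of at least 1 on the log2 CPM scale in both regions. The count depended on single mice. It was 39 without SS mouse 9903, 44 without SS mouse 9824, 5785 or treated mouse 9888, 104 without SS mouse 5349 and 166 without SS mouse 5353, and 143 and 129 without treated mice 7108 and 7121. It also changed with the V numbers. With their stretch as a term it was 76, of which 49 were among the 68. With their run as a term in all groups it was 42, of which 7 were among the 68. With V1 to V37 alone it was 1174, and with V38 to V69 alone 327.

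**Figure D3:**
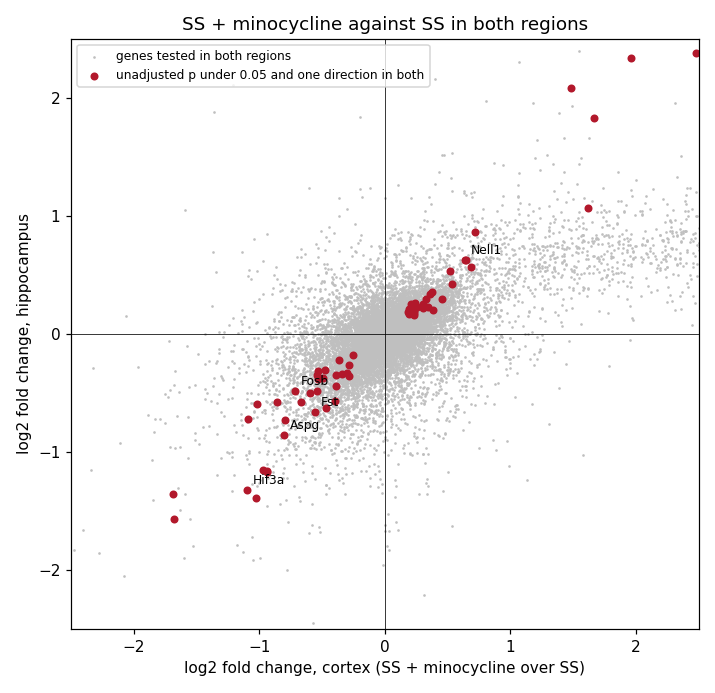
Log2 fold change of SS + minocycline over SS in the cortex (x axis) and hippocampus (y axis) for genes tested in both regions. The 68 genes with an unadjusted p under 0.05 and one direction in both are red, and 4 of them lie outside the axes, which end at 2.5 and leave out 493 genes.

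Among the genes higher in both regions at an unadjusted p under 0.05 were Nell1, Gucy2g, Ass1 and Aars. Nell1, which encodes a secreted protein known for bone formation and also made by neurons, lies on chromosome 7 (49624603 to 50516670, GRCm39). Its cortical level was 80.6, 70.8, 95.5 and 122 CPM in mice 7108, 7121, 9888 and 9889, against 45.6 to 70 CPM (median 61.4) in SS mice. The hippocampal values were 80.1, 71, 115 and 95.5 CPM against 47 to 77.4. The groups did not overlap in the cortex and overlapped in the hippocampus through mouse 7121 and SS mouse 9848. The log2 difference was 0.64 ± 0.17 (SE) in the cortex (edgeR unadjusted p = 0.00075) and 0.62 ± 0.17 in the hippocampus (unadjusted p = 0.00112). The difference of mean log2 CPM was above 0 within V1 to V37 and within V38 to V69, at 0.34 and 0.98 for the cortex and 0.28 and 0.96 for the hippocampus.

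Gucy2g encodes a receptor guanylyl cyclase, an enzyme that makes cyclic GMP (chromosome 19, 55186531 to 55229668). Its cortical level was 22.1, 17, 18.5 and 22 CPM in treated mice and 12 to 16.2 in SS mice, so that the groups were separate (log2 difference 0.52 ± 0.12, edgeR unadjusted p = 0.000181, adjusted p = 0.666). In the hippocampus it was 8.93, 6.37, 5.32 and 5.08 against 3.17 to 5.81 CPM, where 9888 and 9889 lay within the SS range.

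Ass1, the argininosuccinate synthase that makes the precursor of arginine, differed by 0.46 ± 0.13 in the cortex and 0.29 ± 0.12 in the hippocampus on the log2 scale. Aars, the cytosolic alanyl-tRNA synthetase, differed by 0.30 ± 0.13 and 0.25 ± 0.11. Tubb4a, a beta-tubulin abundant in oligodendrocytes, differed by 0.38 ± 0.13 and 0.35 ± 0.16, and its 4 cortical values (887 to 1290 CPM) lay above all 8 of SS mice (630 to 873). Rbm3, a cold-induced RNA-binding protein, differed by 0.33 ± 0.14 and 0.29 ± 0.14, and Fkbp10, a collagen chaperone of the endoplasmic reticulum, by 0.36 ± 0.14 and 0.34 ± 0.15. R3hcc1 differed by 0.54 ± 0.16 and 0.42 ± 0.17. The sign was not the same in both sets of V numbers for several of these genes. In the hippocampus the difference of mean log2 CPM within V38 to V69 was -0.03 for Aars, -0.0035 for Tubb4a, -0.05 for Ass1 and -0.11 for Gucy2g. Within V1 to V37 it was -0.03 for Rbm3 in the hippocampus, and -0.03 and -0.0040 for R3hcc1 in the cortex and hippocampus. Of the exonic bases of Fkbp10 25.5% and of R3hcc1 18.1% overlap genes on the other strand, and 12.1% of those of Aars overlap Exosc6 on its own strand.

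Some of these genes followed a pair of treated mice. Pura, an RNA- and DNA-binding protein of neurons, was at 58.6 and 75.1 CPM in cortices of 7108 and 7121 but at 37.8 and 20.1 in those of 9888 and 9889, against 22.7 to 39.7 in SS mice. In the hippocampus the 4 values were 57.3, 56.6, 28 and 36 CPM against 27.7 to 38.2. R3hcc1 showed the opposite pattern, with 19.6 and 19.5 CPM in 7108 and 7121, 35.7 and 46.2 in 9888 and 9889, and 16.5 to 23.7 in SS cortices.

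Among the genes lower in both regions were Aspg and Fosb. Aspg encodes an asparaginase (chromosome 12, 112073076 to 112094007). Its cortical level was 2.07, 2.83, 1.64 and 2.49 CPM in treated mice, below all 8 SS mice at 3.55 to 5.4. In the hippocampus it was 2.29, 3.18, 2.13 and 2.3 CPM against 2.56 to 6.6, and mouse 7121 lay within the SS range. The log2 difference was -0.80 ± 0.20 in the cortex (edgeR unadjusted p = 0.000317) and -0.85 ± 0.27 in the hippocampus (unadjusted p = 0.00363). The difference of mean log2 CPM was -0.71 and -0.84 within V1 to V37 and -0.82 and -0.54 within V38 to V69, in the cortex and hippocampus.

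Fosb encodes an activity-induced subunit of the AP-1 transcription factor (chromosome 7, 19036621 to 19043976). In the hippocampus it was at 5.47, 5.52, 5.24 and 4.52 CPM in treated mice and 5.98 to 9.13 in SS mice, and the groups did not overlap. In the cortex it was at 10.4, 10.3, 11.9 and 9.95 CPM against 10.5 to 31.8. There mouse 9888 lay above the lowest SS mouse (9822, at 10.5) and the other 3 below it, and SS mouse 9903 stood highest. The log2 difference was -0.72 ± 0.21 in the cortex (edgeR unadjusted p = 0.00141) and -0.48 ± 0.14 in the hippocampus (unadjusted p = 0.00163).

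**Figure D4:**
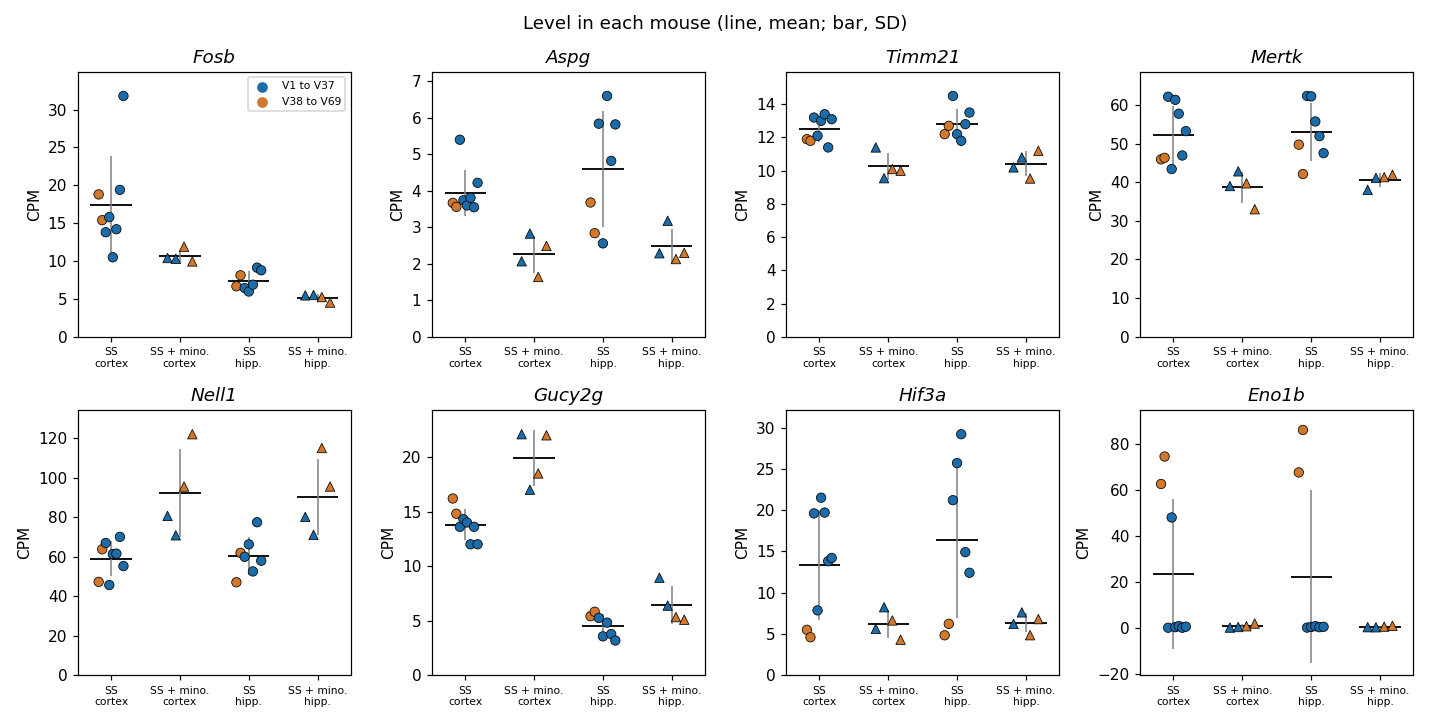
Level in CPM of 8 genes in each mouse, for SS mice (circles) and SS + minocycline mice (triangles) in the cortex and hippocampus, with the mean (black line) and SD (grey bar); blue is V1 to V37 and orange V38 to V69. Timm21 and Mertk are separate between groups in both regions, Hif3a is high in most SS mice of V1 to V37 and low in 5349 and 5353, and Eno1b is high in SS mice 5854, 5349 and 5353.

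Hif3a and Eno1b had a shared direction that rested on part of the mice. Hif3a, a hypoxia-inducible factor subunit that can oppose its relatives, was at 5.61, 8.22, 6.62 and 4.29 CPM in treated cortices. In SS cortices it was at 7.84 to 21.5 CPM in V1 to V37 but at 5.48 and 4.58 in mice 5349 and 5353, and its difference of mean log2 CPM within V38 to V69 was 0.09. Eno1b, an intronless copy of the glycolytic enolase gene, was at 48, 62.5 and 74.4 CPM in cortices of SS mice 5854, 5349 and 5353 and at 2.06 or less in every other SS and SS + minocycline cortex. In the hippocampus 5349 and 5353 again stood at 67.5 and 85.9 CPM with all other mice at 1.09 or less. Its reads are uncertain because a near-identical gene exists. Sec1, a fucosyltransferase gene, was at 1.46 to 2.04 CPM in treated cortices against 1.31 to 6.02 in SS mice, and its paralog Fut2 was also among the 33 lower genes.

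The other genes lower in both regions by the naming rule were Fst, Zfp57, Zfand4, C030034I22Rik and 2900052L18Rik. Fst, follistatin, which binds activin, differed by -0.56 ± 0.24 in the cortex and -0.66 ± 0.32 in the hippocampus. Zfp57, a zinc finger protein that guards imprinted DNA methylation, differed by -0.47 ± 0.23 and -0.63 ± 0.27, and 17.5% of its exonic bases overlap genes on the other strand. Zfand4, a zinc finger gene, differed by -0.39 ± 0.19 and -0.44 ± 0.20. The long noncoding RNAs C030034I22Rik and 2900052L18Rik, with 23.2% and 28.4% of exonic bases on such an overlap, differed by -0.67 ± 0.30 and -0.54 ± 0.20 in the cortex.

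Groups that did not overlap in either region, with one direction, were found at 5 of 19509 genes (0.0256%). They were Mertk, Timm21 and the predicted gene Gm42690, lower in treated mice, and 2210408I21Rik and Gm48780, higher. All 5 were outside the naming rule and are named after their values were seen. Mertk, a receptor kinase with which microglia and astrocytes engulf debris (chromosome 2, 128540729 to 128645080), was at 39, 42.8, 39.7 and 33 CPM in treated cortices and 43.4 to 62.1 in SS cortices. Hippocampal values were 38, 41.1, 41.3 and 41.9 CPM against 42.1 to 62.3. The gap to the nearest SS mouse was thus under 1 CPM in each region, and the log2 differences were -0.43 ± 0.18 (edgeR unadjusted p = 0.0258) and -0.35 ± 0.17 (unadjusted p = 0.0507). Timm21, a subunit of the machinery that imports proteins into mitochondria, was at 9.55 to 11.4 CPM against 11.4 to 13.4 in the cortex and 9.53 to 11.2 against 11.8 to 14.5 in the hippocampus. Its log2 differences were -0.28 ± 0.10 and -0.26 ± 0.10. Gm42690 and Gm48780 were below 1 CPM in every library.

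Immediate early genes are switched on within minutes of neuronal activity and report it. Of 17 in the list, all tested, Fosb and Egr3 were lower in the cortex at an unadjusted p under 0.05, and in the hippocampus Fosb was lower while Arc and Egr1 were higher. These members make up 11.8% of the list lower in the cortex (1.62% of all genes tested), and 11.8% higher and 5.88% lower in the hippocampus (0.99% and 1.18% of all genes). The median log2 fold change was -0.25 in the cortex and 0.07 in the hippocampus, beside 0.04 and 0.03 over all genes tested. Egr3, a zinc finger transcription factor (chromosome 14, 70314350 to 70320063), was at 107, 109, 102 and 78.9 CPM in treated cortices, all below the SS range of 120 to 276. Hippocampal values were 64.5 to 88.8 CPM against 69.8 to 84.5, and the groups overlapped. The log2 difference was -0.88 ± 0.23 in the cortex (edgeR unadjusted p = 0.000711, adjusted p = 0.666) and 0.02 ± 0.10 in the hippocampus. The edgeR test of the difference between regions gave an unadjusted p of 0.00107 and an adjusted p of 1. Arc, which acts at synapses, was at 142, 131, 140 and 86.3 CPM in treated hippocampi and 63 to 121 in SS hippocampi, and Egr1 at 128, 115, 91.2 and 72.7 against 71.2 to 85.4. In both, mouse 9889 lay within the SS range.

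The median of the myelin genes lay above that of all genes in both regions. Of 15 oligodendrocyte genes, Cnp and Mag in the cortex and Ugt8a in the hippocampus were higher at an unadjusted p under 0.05, none was lower, and the medians were 0.30 and 0.33. The members past the threshold were 13.3% and 6.67% of the list, beside 5.45% and 0.99% of all genes tested, and 3 members in the cortex and 1 in the hippocampus lay below 0. With the stretch of V numbers as a term the medians were 0.24 and 0.25, and with their run as a term in all groups 0.37 and 0.25. Mbp, myelin basic protein, was the most abundant. The summed level of the list was 5790, 4840, 7590 and 7310 CPM in cortices of 7108, 7121, 9888 and 9889. In SS cortices it was 3750 to 5600 CPM in V1 to V37 and 5660 and 7120 in 5349 and 5353. In the hippocampus, 7108 and 7121 (5030 and 5240 CPM) lay above the SS mice of V1 to V37 (3970 to 4400), whereas 9888 and 9889 (7630 and 8610) lay on either side of 5349 and 5353 (7900 and 8110). The precursor genes Pdgfra and Cspg4 gave -0.03 and -0.22 in the cortex. Trf, transferrin, which oligodendrocytes make, differed by 0.58 in the cortex (edgeR unadjusted p = 0.0186) and 0.41 in the hippocampus.

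Vascular genes had mostly negative log2 fold changes. Of 17 endothelial and blood-brain barrier genes, 15 (cortex) and 12 (hippocampus) had a negative log2 fold change, Sox17 and Ocln were lower at an unadjusted p under 0.05 in the cortex and Sox17 in the hippocampus, and the medians were -0.16 and -0.08. Over all genes tested, 8572 of 19906 in the cortex and 8924 of 20701 in the hippocampus had a negative log2 fold change. The lower members were 11.8% and 5.88% of the list, beside 1.62% and 1.18% of all genes tested. With the run of V numbers as a term in all groups, the medians of the list were -0.15 and 0.01, and with their stretch as a term -0.25 and -0.16. Sox17, a transcription factor of arterial endothelium, was at 6.34, 6.57, 5.73 and 6.6 CPM in treated hippocampi, below all 7 SS mice at 6.91 to 10.8. In the cortex it was at 5.17, 7.71, 6.32 and 8.15 CPM against 6.93 to 12.9, with overlap. The log2 differences were -0.53 ± 0.17 (edgeR unadjusted p = 0.00296) and -0.39 ± 0.17 (unadjusted p = 0.0331), and 19% of its exonic bases overlap a gene on the other strand. Ocln, occludin of the tight junction, was at 7.29 to 8.07 CPM against 8.47 to 13.1 in the cortex, and gave -0.02 in the hippocampus. Cldn5, the main claudin of the barrier, gave -0.03 and 0.11, and Slc2a1, the glucose carrier of brain vessels and the list's most abundant gene, -0.21 and -0.16. Of 10 pericyte and smooth muscle genes, Anpep and Kcnj8 were lower in the hippocampus at an unadjusted p under 0.05 and none in the cortex, with medians of -0.13 and -0.14. With the run term the medians were -0.12 and 0.07, and with the stretch term -0.14 and -0.14. Anpep and Kcnj8 made up 20% of that list, beside 1.18% of all genes lower in the hippocampus.

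The list of homeostatic microglial genes, which does not hold Mertk, gave no member past an unadjusted p of 0.05 in either region. Of 16 homeostatic genes tested, 12 were above 0 in the cortex and 14 in the hippocampus, with medians of 0.07 and 0.14 that became -0.07 and -0.03 with the stretch of V numbers as a term. With their run as a term in all groups the medians were -0.07 and 0.02. Over all genes tested, 11334 of 19906 in the cortex and 11777 of 20701 in the hippocampus were above 0. Csf1r, the growth factor receptor microglia depend on, gave 0.03 and 0.09, and Aif1, which encodes the microglial marker Iba1, 0.42 and 0.34. The summed level of the homeostatic list was 342, 382, 473 and 608 CPM in treated cortices against 356 to 531 in SS cortices. The 12 complement and phagocytosis genes likewise had no member past that threshold, with medians of 0.12 and 0.05 that became -0.19 and -0.17 with the stretch term. With the run term they were -0.05 and 0.05. Of the cytokines and inflammatory mediators, 15 and 16 of 20 were tested, and Ptgs2 was lower in the cortex. That was 6.67% of the list tested, beside 1.62% of all genes. Ptgs2, the inducible cyclooxygenase that neurons also make, was at 8.74, 12.5, 15.4 and 9.52 CPM in treated cortices against 11.5 to 23.5 in SS cortices, and gave -0.07 in the hippocampus. Casp1, the caspase of the inflammasome, was at 1.85 to 2.49 CPM against 2.44 to 6.14 in the cortex and gave -0.41 ± 0.35 in the hippocampus.

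Markers of lymphocytes and neutrophils were low in all libraries. The summed level of 11 T and B cell markers, of which Ptprc (CD45, made by all leukocytes and by microglia) was the most abundant in every library, was 5.41 to 9.71 CPM in treated cortices and 6.32 to 9.35 in SS cortices, and Cd79b, a part of the B cell receptor, was the 1 member past an unadjusted p of 0.05, higher in the hippocampus. Cd79b was 11.1% of the 9 members tested there, beside 0.99% of all genes higher. The 8 neutrophil genes summed to 0.288 to 2.32 CPM in treated cortices against 0.653 to 9.15 in SS cortices, and only 3 were tested. Interferon-stimulated genes (18) and antigen presentation genes (11) had no member past an unadjusted p of 0.05, with cortical medians of -0.10 and 0.02 and hippocampal medians of -0.12 and -0.26. The antigen presentation median turned to -0.21 with the stretch term and -0.22 with the run term in the cortex. In the hippocampus it was 0.09 with the run term and -0.29 with the stretch term. Of the matrix metalloproteinases and their inhibitors, 15 of 16 were tested in the cortex and 14 in the hippocampus, Timp1 was lower in the cortex at fewer than 1 CPM, and the medians were 0.02 and 0.02. Timp1 was 6.67% of the list tested in the cortex, beside 1.62% of all genes lower. The metalloproteinase Mmp23, which is not in the list and is named after its values were seen, was among the 33 genes lower in both regions. It was at 1.1, 0.847, 0.149 and 0.729 CPM in treated cortices against 0.708 to 2.74 in SS cortices, and at 1.32, 0.923, 0.573 and 0.478 against 0.841 to 2.67 in the hippocampus, with overlap in both. Cd163, the macrophage receptor that clears hemoglobin, was at 0.803, 0.735, 1.31 and 1.69 CPM in treated hippocampi against 1.24 to 3.23 in SS hippocampi (edgeR unadjusted p = 0.00811) and gave -0.59 ± 0.45 in the cortex. It was the 1 member of 17 iron genes tested that was lower there, and Trf the 1 that was higher in the cortex. Each was 5.88% of the list, beside 1.18% of all genes lower in the hippocampus and 5.45% higher in the cortex.

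Mitochondrial genes need to be read beside their libraries. Of 13 mitochondrially encoded mRNAs, 6 were higher in the cortex at an unadjusted p under 0.05 and 0 in the hippocampus (46.2% and 0% of the list, beside 5.45% and 0.99% of all genes tested), with medians of 0.15 and 0.25. With the run of V numbers as a term in all groups, the medians were -0.17 and -0.21, and with their stretch as a term 0.06 and 0.16. The largest difference was that of mt-Atp8, a subunit of ATP synthase, at 4.84 on the log2 scale (edgeR unadjusted p = 0.00156). It was at 39.5 and 52.9 CPM in cortices of 7108 and 7121 but at 0.0996 and 0.0429 in those of 9888 and 9889, against 0.228 to 1.51 in SS cortices. In the hippocampus it was at 56 and 37.2 CPM in 7108 and 7121 and, without minocycline, at 52.4 and 59.1 in SS mice 9822 and 9848. These 6 libraries with a high mt-Atp8 had the 6 lowest shares of reads mapping to several places, 3.2% to 3.51% against 4.3% to 7.09% in the other 17. All 6 had 0 reads of the alpha-globin gene Hba-a1, against 8 to 78 reads in the other 17. The part of this library difference in the result was not tested. mt-Co1, a cytochrome oxidase subunit, gave -0.20 in the cortex and 0.03 in the hippocampus.

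Nuclear genes for the mitochondrion and the cytosolic ribosome had positive log2 fold changes almost throughout. All 77 mitochondrial ribosomal protein genes tested were above 0 in the cortex and 71 of 77 in the hippocampus, with medians of 0.23 and 0.14, and none passed an unadjusted p of 0.05. Over all genes tested, 11334 of 19906 and 11777 of 20701 were above 0. The medians of 78 respiratory chain genes were 0.35 and 0.25, and those of the 81 and 82 cytosolic ribosomal protein genes tested were 0.46 and 0.34. With the stretch of V numbers as a term, they became 0.08 and -0.03, 0.07 and 0.01, and 0.09 and -0.01. With their run as a term in all groups, the medians were 0.06 and 0.04, 0.07 and 0.10, and 0.15 and 0.11. In V38 to V69, where these genes were high, lay 2 of 4 treated mice but 2 of 8 SS cortices and 2 of 7 SS hippocampi. The part of this imbalance in the medians was not tested. Of 26 and 25 genes of the mitochondrial stress response driven by ATF4, 0 passed that threshold in either region, with medians of 0.16 and 0.12.

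**Figure D5:**
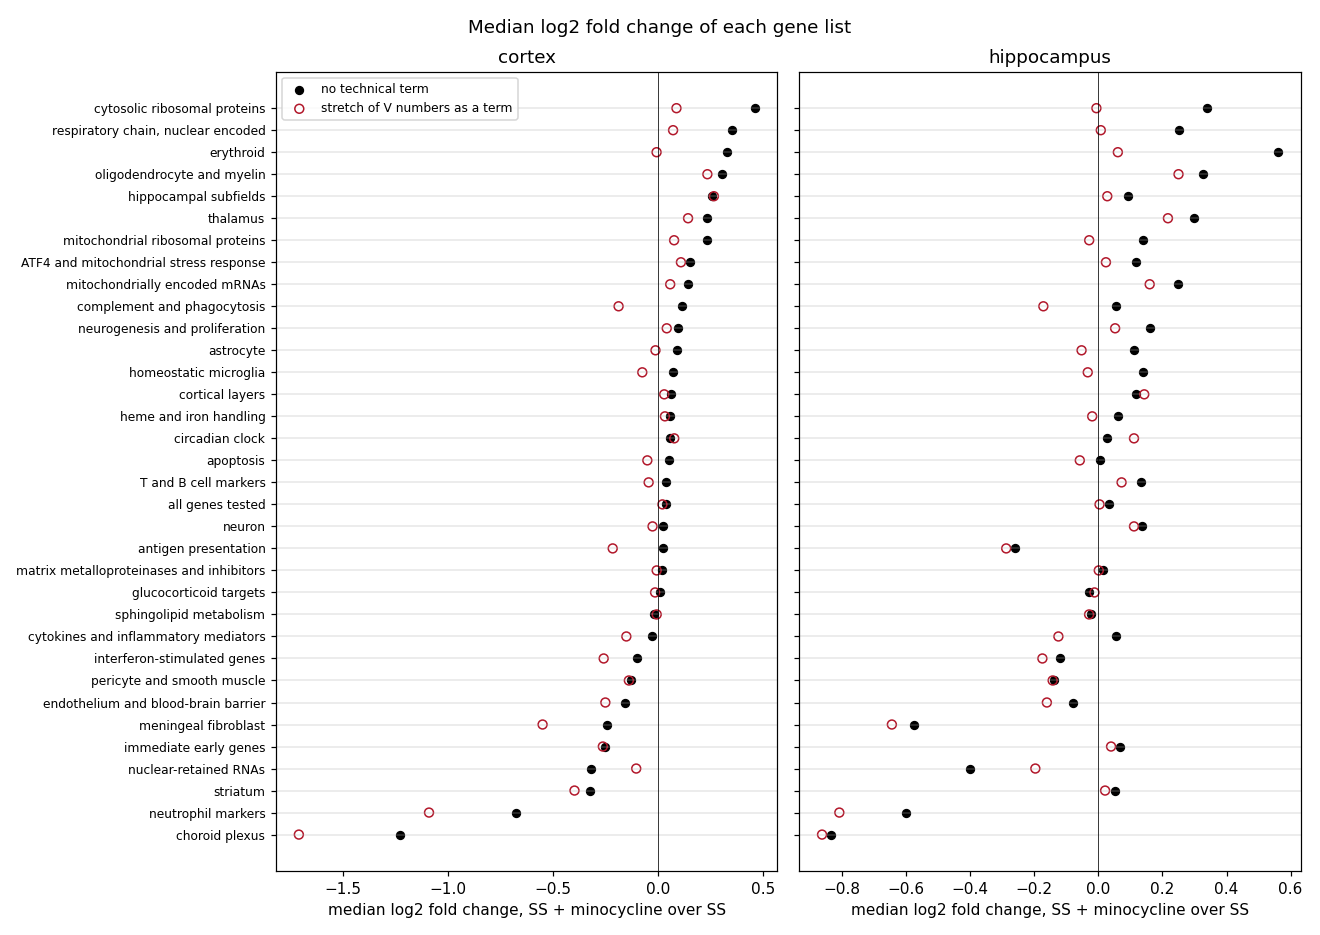
Median log2 fold change of SS + minocycline over SS for each gene list and for all genes tested, in the cortex (left) and hippocampus (right), without a technical term (black) and with the stretch of V numbers as a term (open red). Ribosomal, respiratory chain and erythroid lists move towards 0 with the term, and the myelin list moves from 0.30 and 0.33 to 0.24 and 0.25.

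The remaining lists had 0 to 2 members past an unadjusted p of 0.05 in a region. Choroid plexus genes had the lowest medians, at -1.23 in the cortex, where F5 and Kl were lower (20% of 10 genes tested, beside 1.62% of all genes), and -0.84 in the hippocampus, where none was. Their summed level was 1740 CPM in the cortex of SS mouse 9903 and 3360 in the hippocampus of SS mouse 5349, against 150 to 957 in all other libraries, and the part of these SS libraries in the medians was not tested. Meningeal fibroblast genes, with medians of -0.24 and -0.58, had 1 such member, Slc6a13, lower in the hippocampus (9.09% of the list, beside 1.18% of all genes). With the run term the medians in the cortex and hippocampus were -1.41 and -0.11 for choroid plexus and -0.29 and -0.17 for meningeal genes. With the stretch term they were -1.71 and -0.86 for choroid plexus and -0.55 and -0.645 for meningeal genes. The 14 erythroid genes tested were all above 0 in both regions (medians 0.33 and 0.56), beside 11334 of 19906 and 11777 of 20701 genes tested. With the stretch term the erythroid medians were -0.01 and 0.06, and with the run term -0.04 and 0.25. Astrocyte genes (13) and neurogenesis genes (16) had 0 such members, with medians of 0.09 and 0.11 and of 0.09 and 0.16. With the stretch term these medians were -0.01 and -0.05 for astrocyte genes and 0.04 and 0.05 for neurogenesis genes. With the run term they were 0.05 and 0.10, and 0.03 and 0.15. Neuronal genes had medians of 0.03 and 0.14 and 1 member, Nefh, higher in the hippocampus (5.88% of the list, beside 0.99% of all genes). Of 26 sphingolipid genes, Sptlc2 was higher (0.18 ± 0.08) and Sphk1, which makes sphingosine 1-phosphate, lower in the cortex, at 1.4 to 2.34 CPM against 1.78 to 4.12, and the medians were -0.02 and -0.02. Sptlc2 and Sphk1 were each 3.85% of the list, beside 5.45% of all genes higher and 1.62% lower in the cortex. Glucocorticoid target genes (13) had 1 member, Cdkn1a, lower in the cortex. Apoptosis genes (17) had Casp1 lower in the cortex and Apaf1 lower in the hippocampus, and clock genes (15) had 0. Cdkn1a, Casp1 and Apaf1 were 7.69%, 5.88% and 5.88% of their lists. Over all genes, 1.62% were lower in the cortex and 1.18% in the hippocampus. Of the lists that mark neighbouring brain parts, striatum had medians of -0.32 and 0.05, thalamus 0.23 and 0.30, hippocampal subfields 0.26 and 0.09 and cortical layers 0.06 and 0.12, and the latter had 1 member higher and 1 lower in the cortex. These cortical layer members were each 8.33% of that list, beside 5.45% of all genes higher and 1.62% lower in the cortex. Medians of the remaining lists lay between -0.03 and 0.13, except neutrophil markers at -0.68 and -0.60 and nuclear-retained RNAs at -0.32 and -0.40. In all, the median was above 0 in both regions for 20 of 33 lists and below 0 in both for 8, and above the median of all genes in both for 16 and below it in both for 11. The sign of the median changed with the stretch term for 10 lists in the cortex and 8 in the hippocampus, and with the run term for 12 and 9.

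The regions were not shown to differ. The test of the difference of the minocycline effect between the cortex and the hippocampus called 0 of 21414 genes with edgeR, 171 at an unadjusted p under 0.05, and also 0 with the mouse as a replicate block (580). Mapping shares overlapped between the groups. Reads that did not map made up 17.2% ± 8.21 (SD, n = 4) of reads in treated cortices and 10.7% ± 3.74 (SD, n = 8) in SS cortices (exact permutation test, 2-sided, p = 0.0869, adjusted p = 0.695 over 8 tests). Reads outside annotated genes made up 8.19% ± 3 of reads in treated and 8.61% ± 2.37 in SS cortices, and 6.24% ± 2.2 in treated and 7.91% ± 2.26 in SS hippocampi (SD, n = 4 against 8 and 4 against 7, exact permutation p = 0.677 and 0.264).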

How the data were processed

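Directional libraries were made from polyadenylated RNA and read from one end. The authors mapped the reads to GRCm39 by STAR and deposited 1 table of raw read counts per region, with a row for each GENCODE gene (55416 genes). The annotation release, the STAR version and the strand setting are not given in the sources used here. Reads mapping to several places were not counted on genes. The 4 summary lines of the tables (medians of 12.4% and 13.3% of reads unmapped, 4.98% and 4.83% mapped to several places, 8.25% and 7.59% outside genes, 1.25% and 1.22% ambiguous, in the cortex and hippocampus) stayed out of library sizes and tests. In all, 3 columns that match no sample of a known group were not used, and 1 sample whose labels name both tissues was assigned to no group.

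The tests on counts used edgeR 4.0.16 under R 4.3.3 (filterByExpr by group, minimum count 10 and total 15, TMM, quasi-likelihood F-test) in one model of the 4 SS groups per region, as in the study's methods. Adjusted p-values are Benjamini-Hochberg over all genes tested. Means of both regions per mouse were tested with limma 3.58.1 (trend) on log2 CPM with a prior count of 2. Alternatives, among them DESeq2 1.42.0, are in the closing section. The edgeR tests of each region (with and without the stretch term) and of their difference were checked on simulated counts. So were limma on the means and, for the cortex only, DESeq2. The simulated means held no sets of V numbers. Of 108 genes changed by 1 on the log2 scale, edgeR without the term recovered 52 in the cortex and 60 in the hippocampus. Of 92 genes changed by 2 it recovered 74 and 72. For the difference between regions it recovered 36 of 108 and 64 of 92. Mice, not reads, set the precision. Both regions came from the same mice by the labels, and deviations from the group mean correlated between the regions of one mouse across 13642 genes (r from 0.29 to 0.905 in 11 mice, median 0.688), although for only 6 of the 11 was the mouse's own other region the best match. The group means pool both sets of V numbers, so the difference between sets enters these correlations, and they do not by themselves show the pairing. In all 31 SS genotype mice r was 0.0314 (mouse 7076) to 0.905. Nothing says that mice came from separate litters or cages. Named genes were up to 10 higher and 10 lower genes past an unadjusted p of 0.05 with one direction and log2 CPM of at least 1 in both regions, ranked by the smaller fold, and up to 4 members of each list, by the smallest p. Any gene called would also have been named. Not every gene that this rule picks is described here. Cldn5, Csf1r, Pdgfra, mt-Co1, Hba-a1, Meg3, Fut2 and the genes with separate groups in both regions were named after their values were seen, and the stretches of V numbers were defined after the principal components were seen. The comparison, the 33 lists and the tests were chosen with earlier results of these data known. Positions are from a GENCODE annotation of GRCm39.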

Additional observations from a re-analysis of the deposited data

Results flagged for a closer look

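Single values stood apart from the rest of their group in 5 of 92 groups examined, where chance alone flags about 1 in 20. In cortices of SS mice, Fkbp10 was at 3.98 CPM in mouse 5854 (others 5.46 to 5.93), Aspg at 5.4 CPM in mouse 5785 (others 3.55 to 4.22), and the share of reads mapping to several places was 6.61% in mouse 5353 (others 4.3% to 5.24%). In the cortex of SS + minocycline mouse 7121, 2900052L18Rik was at 4.26 CPM (others 2.89 to 2.92). In the hippocampus of SS mouse 5349, Pura was at 38.2 CPM (others 27.7 to 31.4).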

How the results depend on the processing

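Only 4 treated mice were compared, read depth was not varied, and no run of V numbers held both groups. The count of 0 genes called in the cortex became 58 with the stretch of V numbers as a term in SS and SS + minocycline mice alone, 3381 with V1 to V37 alone, 23 with V38 to V69 alone and 5225 with V9 to V54 alone. In the hippocampus it became 8 with V1 to V37 alone and 118 with V38 to V69 alone. The stretch settings were chosen after seeing the data. Restricted to V1 to V37, V38 to V69 or V9 to V54, treated and SS mice differ in their run of V numbers, and the 2 cannot be told apart. All other alternatives run for the 2 regions, for the mean of both regions and for their difference gave 0 calls. Among them were DESeq2, RLE size factors, no filter and leaving out each SS and SS + minocycline mouse in turn (0 to 0). Of the stressed mice in the models only 7078 was left out, in the fits of each region, and 7076 was not. Both regions of a mouse are paired, and with the mouse as a replicate block 0 genes were called for the mean and 0 for the difference.

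The 68 genes shared by both regions became 133 without the filter, 133 with the identical library kept, 1897 with the V number series as a term, 4693 with V9 to V54 alone, 42 with the run of V numbers as a term in all groups, 176 with the stretch term in the 2 groups alone, 1174 with V1 to V37 alone and 327 with V38 to V69 alone. They ranged from 44 to 143 without each treated mouse and from 39 to 166 without each SS mouse. With DESeq2, 63 of the 68 were among its 90, and with the run of V numbers as a term 7 were.

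Among the genes named for both regions, directions reversed with V38 to V69 alone for Pura (-0.305 in the cortex and -0.0759 in the hippocampus), Gucy2g (-0.0663) and Ass1 (-0.00651) in the hippocampus, Hif3a (0.115 and 0.113) and Sec1 in the cortex (0.0398). With V1 to V37 alone R3hcc1 in the cortex (-0.0683) and Rbm3 in the hippocampus (-0.0272) reversed, and Eno1b in the hippocampus (0.657) with V9 to V54 alone. All values are log2 fold changes.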
